A study of Mus musculus with 4 samples.

Results

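The genes described here are 38 genes of oligodendrocytes and their myelin, chosen for their known roles, with earlier results of these data in view, and matched by symbol in 2 deposited expression tables that together list 19135 symbols. All 38 were found in at least 1 table: 33 in the stress table, 37 in the adeno-associated virus (AAV) table and 32 in both. The RNA came from prelimbic cortex, within the medial prefrontal cortex, of C57BL/6 mice aged 8 weeks, with 1 library in each of 4 groups. The control and susceptible groups belong to a chronic social defeat experiment, in which mice meet an aggressor repeatedly and those that later avoid contact are called susceptible. Both carry the same stress tag in the labels, so the exposure of the control mice is not clear from them. The other groups received AAV carrying GFP (green fluorescent protein) or CDYL (chromodomain Y-like, a chromatin corepressor). The labels do not say which promoter the virus used, which cells it reached, or whether a library was 1 mouse or a pool. Cdyl itself stood at 1.98 FPKM in control, 2.54 in susceptible, 2.68 with AAV-GFP and 1052 with AAV-CDYL, in the direction of the labels.

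Below, "after stress" stands for susceptible against control and "with CDYL" for AAV-CDYL against AAV-GFP. Levels are FPKM (fragment counts divided by transcript length and sequencing depth), deposited by the authors in tables that were normalized separately. The size rule calls a gene higher or lower when log2(FPKM + 1) differs by 1.5-fold or more and the gene reaches a floor of 1 FPKM in at least 1 of the pair. That scale shrinks the differences of low genes, so single genes are also given plain ratios of FPKM. Each group is 1 library, which leaves no replicate spread to test against, so no p-value of this work stands beside any difference. Depth, inferred from how low FPKM values are spaced, was lowest in control (14300000 effective fragments) and between 22600000 and 23800000 in the other 3 libraries. The ranges in parentheses after folds are 95% intervals from approximate fragment numbers and cover counting error only, not differences between mice. Neither table lists a gene above 0 in both of its libraries with a log2 ratio smaller in size than 0.32, so an absent gene has no value here, and a listed gene had to differ one way or the other.

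Oligodendrocytes wrap axons in a lipid-rich sheath, in which compact layers are held together by basic proteins and proteolipids, while uncompacted loops at the paranode seal the sheath beside the node of Ranvier. Their precursors carry PDGF receptor alpha and the NG2 proteoglycan, and lineage transcription factors drive the myelin genes as precursors mature. In the prefrontal cortex the grey matter is thinly myelinated, and the sheath proteins are made from some of the most abundant glial transcripts.

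Each of the 38 genes lay above the reference library in every table that lists it. In the susceptible library 22 of the 32 members at the floor were higher by the size rule and 0 were lower, against 18.9% and 10.8% of all 5334 genes at the floor. With CDYL it was 35 of 36 and 0, against 31.3% and 14.4% of 8047. Centred on the median of all genes, 17 and 32 members were higher and 0 lower, against 9.97% of genes higher and 36% lower after stress and 20.3% and 44.4% with CDYL. The median difference of the members on the log2(FPKM + 1) scale was 0.93 after stress, against 0.24 over all listed genes at the floor. With CDYL it was 1.61, against 0.30. Of those listed genes 52.3% after stress and 53.4% with CDYL lay above the reference. Genes with small ratios are not listed, so the all-gene medians lie near the edge of a gap. Centring on them is thus only a rough check of scaling. All of these members reached 1 FPKM in the reference library too (lowest 1.39 in control, 1.28 with AAV-GFP), so none entered through its higher library. With 1 bulk library a group, more oligodendrocytes, more RNA in each and a different make-up of the dissected tissue cannot be told apart. Markers of other cells, given below, also differed, and their part was not tested.

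**Figure D1:**
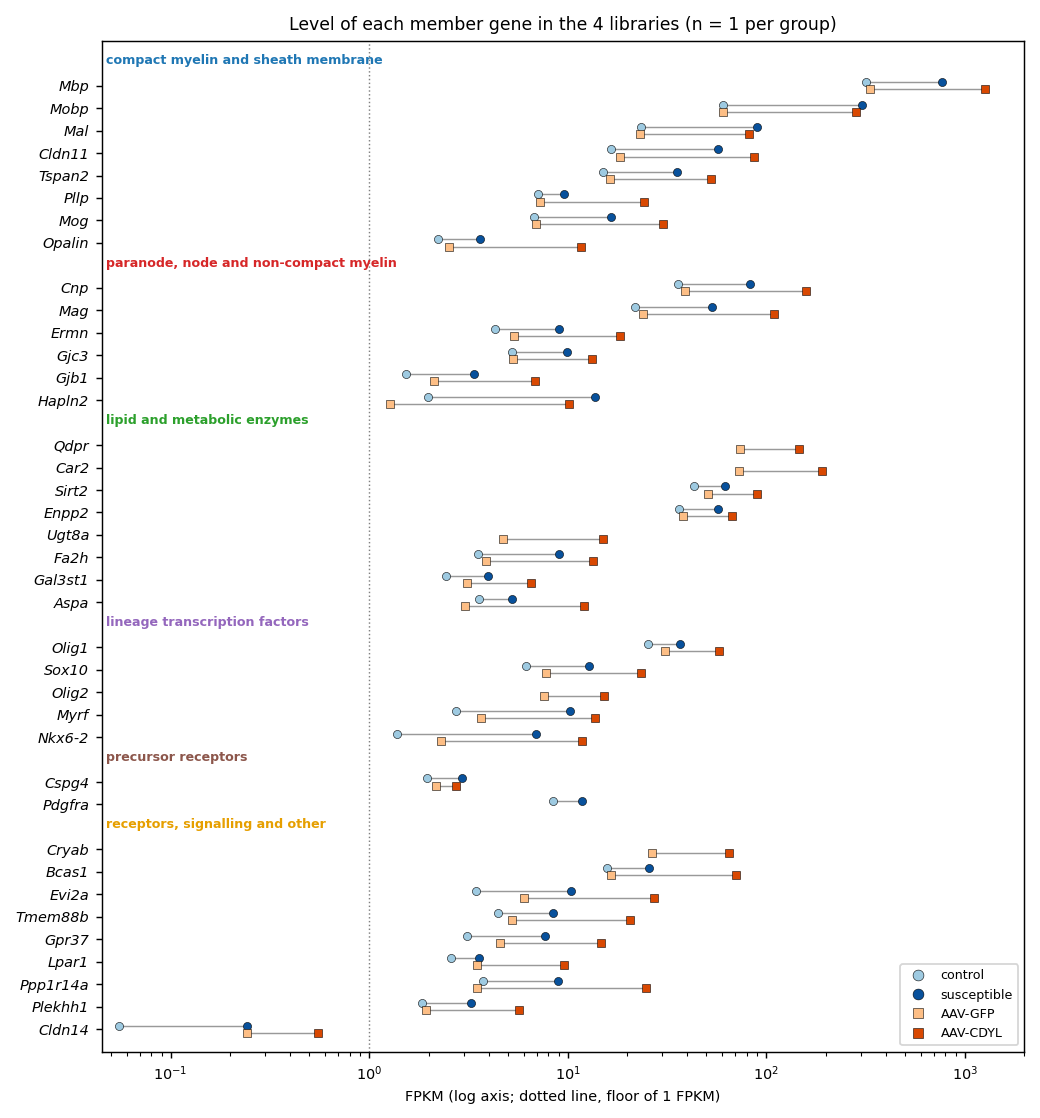
Level of each of the 38 genes in the 4 libraries, in FPKM on a log axis, grouped by role; circles are the stress pair, squares the AAV pair, and a grey line joins the libraries of a pair. Each treated library lies to the right of its reference, and the lines are shortest for Cspg4 in the AAV pair and for Pllp in the stress pair; 5 genes have no circles and Pdgfra has no squares because they are not in that table.

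The compact myelin and sheath membrane genes were higher in both treated libraries, most evenly with CDYL. Mbp, myelin basic protein, which seals the cytoplasmic faces of the membrane, was the most abundant member, at 319.9 FPKM in control, 769 in susceptible, 333 with AAV-GFP and 1267 with AAV-CDYL. These are folds of 2.40 (2.35 to 2.46) and 3.80 (3.74 to 3.87). Mobp, a small basic protein of the same layers (chromosome 9, 120149742 to 120181484 in mm10, as all positions of genes here), stood at 60.9 and 303 FPKM in the stress pair and at 60.6 and 285 in the AAV pair, 4.98-fold (4.51 to 5.52) and 4.70-fold (4.33 to 5.11). Both Mbp and Mobp were thus higher in each treated library, Mobp by the larger factor. Mal, a proteolipid that sorts membrane to the sheath (chromosome 2, 127633226 to 127656695), stood at 23.4, 89.5, 23.3 and 81.9 FPKM in the same order of libraries. Cldn11, the claudin of the tight junctions between myelin layers (chromosome 3, 31149920 to 31164324), stood at 16.6, 57.5, 18.3 and 86.5 FPKM. Mog, an immunoglobulin-fold protein on the outermost layer, was at 6.78 and 16.5 FPKM in the stress pair and at 6.95 and 30.0 in the AAV pair. The tetraspanin gene Tspan2 was at 15.1, 35.5, 16.3 and 52.9 FPKM. Of the 8 genes, 6 were higher by the size rule after stress, and all 8 with CDYL. Over all genes at the floor the shares were 18.9% and 31.3%.

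Pllp and Opalin were the exceptions after stress. Pllp, plasmolipin, a relative of Mal, stood at 7.08 and 9.59 FPKM in control and susceptible, 1.35-fold (1.10 to 1.68), but at 7.27 and 24.3 in the AAV pair, 3.34-fold (2.86 to 3.91). Its exons also lie 54.2% within those of an annotated neighbour, Gm45767, and fragments of the 2 cannot be assigned with certainty. Opalin, a sialylated membrane protein of the sheath, stood at 2.23 and 3.60 FPKM, 1.61-fold (1.18 to 2.21), and at 2.51 and 11.6, 4.63-fold (3.76 to 5.80). For both genes the interval after stress lay below the one with CDYL.

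All 6 genes of the paranode, the node and non-compact myelin were higher by the size rule in both pairs. Among all genes at the floor 18.9% were higher after stress and 31.3% with CDYL. Hapln2, a link protein that ties brevican to hyaluronan at the node (chromosome 3, 88021750 to 88027583), was the member with the largest fold in each pair and was low in both reference libraries. It was at 1.99 FPKM in control against 13.8 in susceptible, 6.94-fold (5.14 to 9.42), and at 1.28 and 10.2 in the AAV pair, 7.95-fold (5.96 to 11.0). Mag, the adhesion molecule of the innermost loop that faces the axon (chromosome 7, 30899176 to 30914873), stood at 21.7, 53.6, 23.9 and 109 FPKM. Cnp, the phosphodiesterase that keeps cytoplasmic channels open in the sheath, stood at 36.1, 83.0, 38.9 and 158 FPKM, in a Cuffdiff locus with other listed genes. Ermn, a cytoskeletal protein of the sheath's outer lip, was at 4.31 and 8.99 FPKM and at 5.39 and 18.4. The connexin genes of the sheath had the smallest differences in this group with CDYL. Gjb1 (connexin 32) stood at 1.53, 3.38, 2.12 and 6.84 FPKM, and Gjc3 (connexin 29) at 5.22, 9.95, 5.33 and 13.3.

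The stretches before the start sites of 6 of these genes are shown because genes that lay higher together can be compared in the letters that Sox and Myrf factors are known to prefer. RefSeq start sites (GRCm38.p6) were found for 28 of the 38 members. In the 250 bases before each start, both strands were searched for ACAAAG and ACAAT (Sox boxes), CTGGCAC and CTGGTAC (Myrf) and CAGCTG (an E-box). Capitals mark these letters or their reverse complements. Bases that GENCODE M21 counts as exon of the gene are left out, which shortens some stretches.
Mobp (chr9:120149492-120149706, plus strand): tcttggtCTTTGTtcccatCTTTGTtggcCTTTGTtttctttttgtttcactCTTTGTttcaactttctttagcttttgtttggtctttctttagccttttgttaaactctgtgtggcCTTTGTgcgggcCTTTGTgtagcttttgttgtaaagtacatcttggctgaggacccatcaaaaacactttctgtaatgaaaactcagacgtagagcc
Hapln2 (chr3:88027584-88027761, minus strand): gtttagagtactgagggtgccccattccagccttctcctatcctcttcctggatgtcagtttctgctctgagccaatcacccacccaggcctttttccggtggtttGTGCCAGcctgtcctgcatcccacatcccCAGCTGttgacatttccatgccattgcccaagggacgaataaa
Mag (chr7:30914923-30915172, minus strand): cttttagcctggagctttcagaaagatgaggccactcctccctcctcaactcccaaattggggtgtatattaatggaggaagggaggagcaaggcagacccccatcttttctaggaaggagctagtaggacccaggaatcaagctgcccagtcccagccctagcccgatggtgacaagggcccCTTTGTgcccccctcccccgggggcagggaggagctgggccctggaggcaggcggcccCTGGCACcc
Cnp (chr11:100574689-100574903, plus strand): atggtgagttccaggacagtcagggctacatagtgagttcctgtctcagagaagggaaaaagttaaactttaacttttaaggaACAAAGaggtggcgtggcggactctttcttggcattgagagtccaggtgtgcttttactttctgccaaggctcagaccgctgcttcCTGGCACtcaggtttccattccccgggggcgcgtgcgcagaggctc
Mal (chr2:127656696-127656945, minus strand): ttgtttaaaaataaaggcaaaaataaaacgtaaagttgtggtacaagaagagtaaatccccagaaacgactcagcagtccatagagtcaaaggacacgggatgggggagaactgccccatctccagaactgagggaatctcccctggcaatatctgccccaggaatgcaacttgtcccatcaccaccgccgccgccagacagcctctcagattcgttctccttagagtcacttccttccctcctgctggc
Pdgfra (chr5:75152001-75152250, plus strand): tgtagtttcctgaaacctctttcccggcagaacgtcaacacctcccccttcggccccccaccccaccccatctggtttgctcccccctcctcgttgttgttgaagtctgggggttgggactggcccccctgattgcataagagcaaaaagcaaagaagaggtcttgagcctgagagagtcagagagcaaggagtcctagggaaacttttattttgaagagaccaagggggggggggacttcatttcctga
Mobp held 6 copies of the reverse complement of ACAAAG, and its window was the 1 window of 32851 with that many. In the windows shown, Mag and Cnp each held both ACAAAG and CTGGCAC, a combination present in 0.691% of windows. Its share by gene was not counted, and the window of another start site of Mag held none of the letters. Hapln2 held CTGGCAC and CAGCTG, and 3 matches to ACAAT lie in the part of its window not printed. Mal, with folds of 3.82 and 3.52, and Pdgfra, a precursor receptor with a small difference, held none of the letters searched. Nor did several members not shown, among them Nkx6-2, Cldn11 and Ppp1r14a, which were higher by the size rule in both pairs. The 6 stretches are thus not typical of the 28, and of the members with CTGGCAC only Lpar1 is not shown. By gene, ACAAAG was in 7 of the 28 members (25%) and in 18.6% of the 27025 genes searched. ACAAT was in 11 (39.3%) and 30.9%, and CTGGCAC in 4 (14.3%) and 4.83%. CTGGTAC was in 1 member, Mog, and in 2.11% of genes, and CAGCTG in 3 members (10.7%) and 14.7% of genes. A match is a description of these letters and not a binding site.

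The lipid and metabolic enzymes had smaller median differences than the structural genes. Of the 8, 5 were listed in the stress table, 2 of them higher by the size rule, and all 8 were higher with CDYL. The shares of all genes at the floor were 18.9% after stress and 31.3% with CDYL. Fa2h, which makes the 2-hydroxylated fatty acids of galactolipids, stood at 3.54 FPKM in control, 9.05 in susceptible, 3.88 with AAV-GFP and 13.4 with AAV-CDYL. Ugt8a, the galactosyltransferase that makes galactosylceramide, was listed in the AAV table only, at 4.74 and 15.1 FPKM. Gal3st1, which sulfates galactosylceramide to sulfatide, stood at 2.44, 3.97, 3.12 and 6.53 FPKM. The enzymes thus lay above the reference at each listed step of this short route, by 1.63-fold or more. Aspa, the aspartoacylase that frees acetate from N-acetylaspartate, stood at 3.56 and 5.26 FPKM after stress, 1.48-fold (1.08 to 2.04), and at 3.04 and 12.1 with the viruses, 3.97-fold (3.08 to 5.13). Enpp2, autotaxin, which makes lysophosphatidic acid, was at 36.4, 57.1, 38.2 and 67.2 FPKM, and Sirt2, a deacetylase of the inner loops, at 43.2, 62.2, 51.1 and 89.4. Car2, carbonic anhydrase II, and Qdpr, which regenerates tetrahydrobiopterin, are also made outside oligodendrocytes and were listed in the AAV table only, at 73.0 and 191 FPKM and at 73.5 and 146.

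Among the lineage transcription factors, the factors of late maturation had larger folds than Olig1, which precursors also make. Myrf, the membrane-tethered factor that switches on myelin genes (chromosome 19, 10208272 to 10240748), was at 2.75 and 10.3 FPKM in the stress pair, 3.73-fold (3.12 to 4.51), and at 3.64 and 13.8 in the AAV pair, 3.79-fold (3.32 to 4.32). Nkx6-2, a homeodomain factor of maturing oligodendrocytes, stood at 1.39 and 6.95 FPKM, 5.01-fold (3.30 to 7.80), and at 2.31 and 11.8, 5.08-fold (3.90 to 6.67). In the AAV table it shares a locus with another listed gene, and 12.9% of its exonic bases lie in Inpp5a. Sox10, which acts through the whole lineage and together with Myrf, stood at 6.18, 12.9, 7.75 and 23.4 FPKM. Olig1 stood at 25.3, 37.0, 30.8 and 57.8 FPKM, 1.46-fold (1.34 to 1.59) and 1.88-fold (1.76 to 2.0), so its intervals lay below those of Myrf, Sox10 and Nkx6-2 in both pairs. Olig2, which lies 41.1 kb from Olig1 on chromosome 16 and specifies the lineage, was in the AAV table only, at 7.62 and 15.2 FPKM.

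The precursor receptors had the smallest differences of the role groups. Pdgfra, the receptor through which PDGF keeps precursors dividing, was at 8.40 FPKM in control against 11.8 in susceptible, 1.41-fold (1.24 to 1.61), and was not in the AAV table. Cspg4, the NG2 proteoglycan, which pericytes also make, stood at 1.96 and 2.94 FPKM, 1.5-fold (1.28 to 1.75), and at 2.18 and 2.73 with the viruses, 1.25-fold (1.10 to 1.43). None of these 3 values passed the size rule. Cspg4 was the 1 member at the floor in the AAV table that did not, and centring on the median of all genes turns its difference of 0.23 to -0.067.

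The remaining receptors, signalling and other genes lay above the reference in both pairs. After stress 5 of the 7 at the floor were higher, and all 8 with CDYL, against 18.9% and 31.3% of all genes. Ppp1r14a, an inhibitor of myosin phosphatase, stood at 3.73 and 8.96 FPKM, 2.40-fold (1.74 to 3.44), and at 3.49 and 24.8 with the viruses, 7.09-fold (5.51 to 9.32). Bcas1, which marks oligodendrocytes that are forming sheaths (chromosome 2, 170346991 to 170427845), was at 15.7, 25.7, 16.4 and 70.7 FPKM, 1.63-fold (1.49 to 1.79) and 4.30-fold (4.03 to 4.60). It shares a locus with other listed genes, and 12.6% of its exonic bases lie in Bcas1os1 and Bcas1os2. Gpr37, a receptor of maturing oligodendrocytes, stood at 3.12, 7.68, 4.57 and 14.6 FPKM. Lpar1, a receptor for the lysophosphatidic acid that Enpp2 makes, stood at 2.59 and 3.58 FPKM and at 3.51 and 9.61. Tmem88b was at 4.45, 8.40, 5.23 and 20.6 FPKM, Plekhh1 at 1.84, 3.26, 1.93 and 5.69, and Evi2a at 3.45, 10.4, 6.04 and 27.3, in a locus with other listed genes. Cryab, a small heat shock protein that astrocytes also make, was in the AAV table only, at 26.7 and 65.1 FPKM. Cldn14, a claudin, stayed under 1 FPKM in all 4 libraries (0.0546, 0.242, 0.242 and 0.552), and its intervals (0.557 to 195 and 0.909 to 6.58) include no difference.

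Medians by role are on the log2(FPKM + 1) scale. After stress they were 1.27 for the 4 listed lineage factors and 1.22 for compact myelin and sheath membrane. They were 1.05 for paranode, node and non-compact myelin, 0.79 for receptors and signalling, 0.53 for enzymes and 0.43 for the precursor receptors. With CDYL they were 1.89 for compact myelin and sheath membrane and 1.80 for paranode, node and non-compact myelin. Receptors and signalling stood at 1.64, lineage factors at 1.48, enzymes at 1.18 and Cspg4 alone at 0.23. In both pairs the structural groups thus lay above the enzymes, and the enzymes above the precursor receptors. The ranges overlap: after stress compact myelin and sheath membrane ran from 0.39 to 2.30 and enzymes from 0.46 to 1.15. With CDYL compact myelin and sheath membrane ran from 1.61 to 2.21 and enzymes from 0.80 to 1.69. These differences between role groups were not tested.

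**Figure D2:**
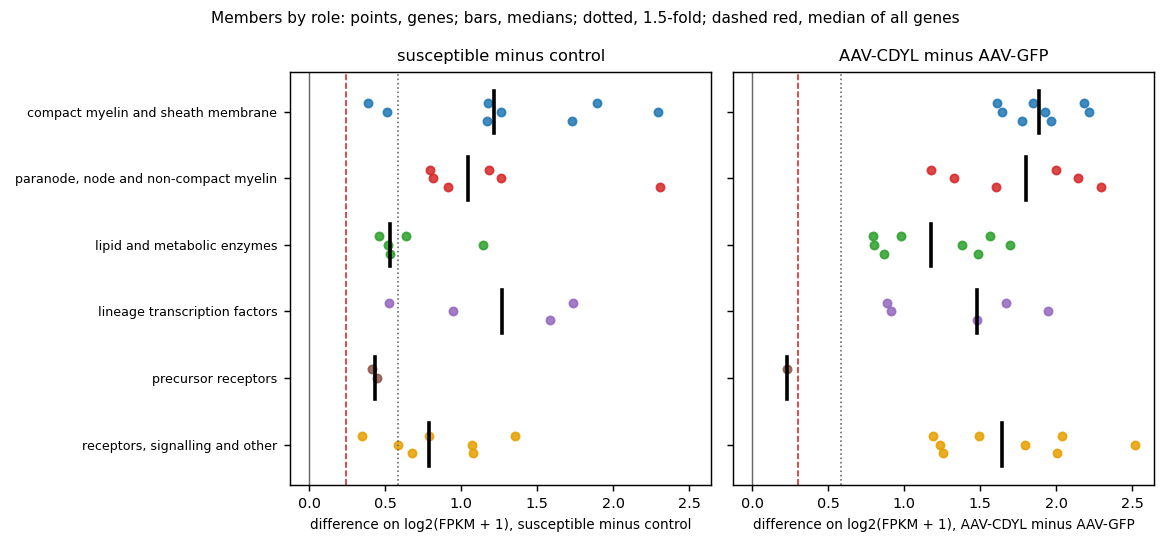
Difference of each member on log2(FPKM + 1), by role, for susceptible minus control (left) and AAV-CDYL minus AAV-GFP (right); bars are medians, the dotted line is 1.5-fold and the dashed line the median of all genes at the floor. All points lie above 0, and Cspg4 on the right lies below the dashed line. Compact myelin and sheath membrane spreads from 0.39 to 2.30 on the left and lies between 1.61 and 2.21 on the right.

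The pairs share no library, so their folds can be set side by side for the 31 members at the floor in both. By the size rule 22 members were higher in both pairs, 8 with CDYL but not after stress, 0 after stress alone, and Cspg4 in neither. Over all genes at the floor 18.9% were higher after stress and 31.3% with CDYL. The overlap, the comparison of folds and the correlation below were not computed over all genes. The median fold of the members was 2.21 after stress and 3.52 with CDYL. The fold was larger with CDYL for 28 members, and for 20 of these the counting intervals did not overlap. Opalin, Aspa, Bcas1, Pllp and Ppp1r14a were furthest apart, with folds 2.87, 2.69, 2.64, 2.47 and 2.95 times as large with CDYL. Mobp, Mal and Cspg4 had the larger fold after stress, with overlapping intervals, and Myrf and Nkx6-2 had nearly equal folds in both pairs (ratios of 1.02 and 1.01). Across the 31 members Pearson's r of the log2 folds was 0.65 and Spearman's rho 0.65. All points of a pair share the same 2 libraries and members are not replicates, so these values are a description.

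**Figure D3:**
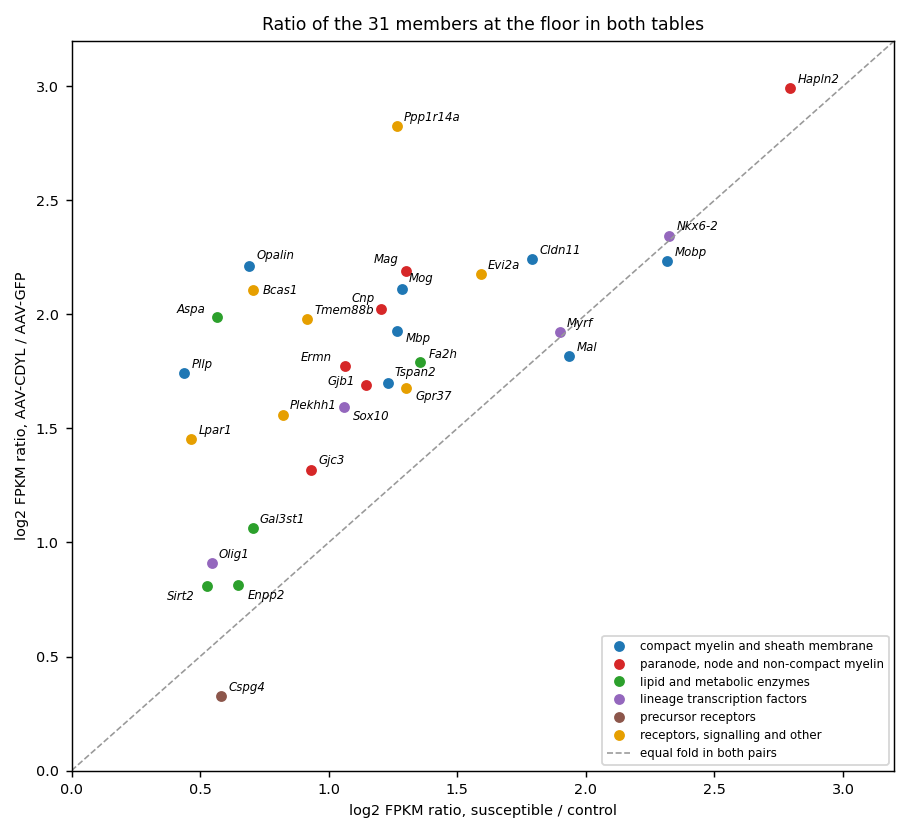
Log2 ratio of FPKM in the stress pair (horizontal) and in the AAV pair (vertical) for the 31 members at 1 FPKM or more in both tables, coloured by role; the dashed line marks equal folds. Of the 31 points 28 lie above the line, Mobp, Nkx6-2, Myrf and Mal lie close to it, and Hapln2 is at the top right.

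The 2 reference libraries held the members at like levels, although their tables were normalized separately. The AAV-GFP value divided by the control value had a median of 1.10 over the 31 members and was within 1.5-fold for 28. Hapln2 (0.642), Nkx6-2 (1.67) and Evi2a (1.75) lay outside, each under 7 FPKM in both libraries.

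Ratios between members inside 1 library do not depend on how libraries were scaled, and the proportions among sheath genes differed between control and susceptible. The gene pairs were chosen after their values were seen. Mobp relative to Mbp was 0.190 in control and 0.394 in susceptible, and 0.182 and 0.225 with AAV-GFP and AAV-CDYL. Mal relative to Mbp was 0.0732 and 0.117 in the stress pair and 0.0698 and 0.0647 in the AAV pair. Both ratios were highest in the susceptible library. Mog, Mag and Cnp kept close to Mbp after stress: Mog to Mbp was 0.0212 and 0.0215, Mag to Mbp 0.0680 and 0.0697, and Cnp to Mbp 0.113 and 0.108. Pllp divided by the related Mal was 0.303 in control and 0.107 in susceptible, while it was 0.312 and 0.297 in the AAV pair. Opalin relative to Mog was 0.329 and 0.218, then 0.361 and 0.387. Cspg4 relative to Mag was lower in both treated libraries, 0.0902 and 0.0548 in the stress pair and 0.0911 and 0.0250 in the AAV pair. Myrf relative to Olig1 was higher in both, 0.109 and 0.278, then 0.118 and 0.239.

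**Figure D4:**
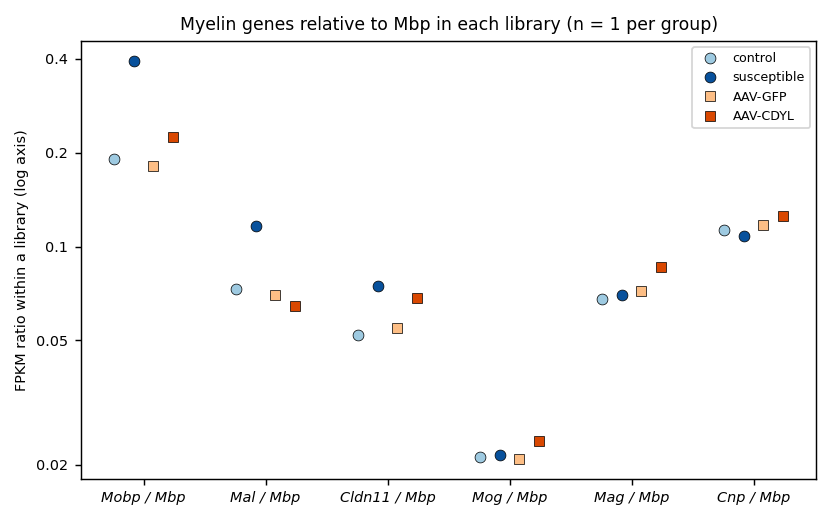
FPKM of 6 myelin genes divided by that of Mbp within each of the 4 libraries, on a log axis; circles are the stress pair and squares the AAV pair, with 1 library a group. Mobp to Mbp stands at 0.394 in susceptible against 0.182 to 0.225 in the other libraries, while Mog to Mbp stays between 0.0209 and 0.0237.

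Genes of the lineage outside the 38 were taken from lists of known function. Over all genes at the floor 18.9% were higher and 10.8% lower after stress, and 31.3% and 14.4% with CDYL. Of 30 other mature oligodendrocyte genes, 13 of 23 at the floor were higher and 1 lower after stress (median 0.70), and 23 of 26 were higher and 0 lower with CDYL (median 1.49). Some of these reached the floor only in the treated library (3 after stress and 4 with CDYL, Klk6 among them). Of those at the floor in the reference library, 12 of 20 were higher after stress and 19 of 22 with CDYL. Tmem63a, an ion channel gene, stood at 3.06 and 11.0 FPKM in the stress pair, and Anln, an actin-binding scaffold, at 1.82 and 7.10. Tppp, a tubulin-binding protein, was the 1 gene that was lower, at 255 and 153, and is named after its values were seen. In the AAV pair the protease gene Klk6 stood at 0.0996 and 17.3 FPKM and the tetraspanin gene Cd9 at 14.2 and 103. Of 15 other sphingolipid and fatty acid enzymes, 2 of 5 were higher after stress (median 0.44) and 4 of 9 with CDYL (median 0.57), among them the ceramide synthase gene Cers2 at 13.9 and 26.3, then 12.6 and 30.6 FPKM. Elovl1, an elongase, stood at 3.47 and 6.89 after stress, and Gltp, a glycolipid transfer protein, at 8.93 and 31.9 with the viruses.

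Genes of precursors and newly formed cells had smaller median differences than the mature list, a contrast that was not tested. Their counts called higher, 1 of 6 after stress and 3 of 12 with CDYL, lay close to the shares of all genes (18.9% and 31.3%). After stress the 1 gene of 6 counted as higher (median 0.38) was the transcription factor Tcf7l2, at 0.634 and 2.72 FPKM, and Matn4, a matrix protein, stood at 2.78 and 4.34. With CDYL 3 of 12 were higher and 0 lower (median 0.48), among them Enpp6, a mark of newly formed oligodendrocytes, at 0.657 and 4.98 FPKM, and the calcium channel gene Itpr2 at 2.03 and 4.90. Tcf7l2 after stress and Enpp6 with CDYL reached the floor only in the treated library, and of the genes at the floor in the reference library 0 of 5 and 2 of 9 were higher. Other lineage factors and inhibitors of differentiation were mostly absent from the stress table, where the transcription factor gene Zeb2 stood at 45.2 and 31.9 FPKM and Nkx2-2 at 0.857 and 1.32. With CDYL 4 of 8 were higher and 2 lower (median 0.51), a median that turned to -0.56 with a floor of 5 FPKM (3 of 7 higher and 2 lower among those at the floor in AAV-GFP): Nkx2-2, a lineage factor, stood at 1.07 and 3.40, and Lingo1, a neuronal inhibitor of differentiation, at 176 and 91.1. Most axonal partners of the node and paranode lay below the reference, 5 of 6 after stress and 13 of 16 with CDYL. After stress 0 of 6 were higher and 1 lower (median -0.44), with Cntnap2 at 43.8 and 27.4 FPKM and the glial neuregulin receptor gene Erbb3 at 0.957 and 1.91. With CDYL 2 of 16 were higher and 7 lower (median -0.56), or 1 of 15 and 7 at the floor in AAV-GFP. Cntnap1, the axonal protein that binds the paranodal loops, stood at 48.0 and 21.1 FPKM, and Epb41l2, a membrane scaffold, at 12 and 26.5.

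Markers of other cells also differed within both pairs, and their part in the results was not tested. Their counts stand against the same shares of all genes as above, 18.9% higher and 10.8% lower after stress and 31.3% and 14.4% with CDYL. Neuron markers were all below the reference: 8 of 15 were listed after stress, with 0 higher and 2 lower and a summed level of 2529.7 FPKM in control and 1826 in susceptible. With CDYL 13 of 15 were listed, 0 higher and 8 lower, summing to 6557 and 4213. Of 15 astrocyte markers, 4 of 7 at the floor were higher after stress (sums of 581 and 978 FPKM) and 7 of 10 with CDYL, with 1 lower (335 and 896). Gfap, which reactive astrocytes make in quantity, stood at 2.92 and 31.0 FPKM and at 5.85 and 386, and without it the AAV sums were 329 and 509. Aqp4, a water channel, stood at 9.87 and 6.36 after stress, and Gjb6, a connexin, at 44.7 and 19.5 with the viruses. Gfap, Aqp4 and Gjb6 are named after their values were seen. Of 14 microglia markers, 2 of 10 were higher and 2 lower after stress (median 0.03, sums of 202 and 219.8 FPKM), close to the higher share of all genes, and 13 of 14 were higher with CDYL (258 and 2003). Of 12 endothelial markers, 5 of 9 were higher after stress (84.9 and 232 FPKM) and 4 of 9 with CDYL (104 and 190.02). Of 11 striatal neuron markers, 7 of 9 were higher after stress (84.0 and 136 FPKM) and 3 of 5 with CDYL (38.7 and 42.5), with Isl1 listed at 0 in control and AAV-GFP. In each pair 2 of these, Drd2 and Adora2a, reached the floor only in the treated library, which leaves 5 of 7 and 1 of 3 higher. Schwann cells make the myelin of peripheral nerves. Of 7 Schwann cell markers none of the 4 listed reached 1 FPKM after stress (sums of 0.491 and 0.723), and 2 of 3 at the floor were higher with CDYL (17.2 and 25.2), 1 of them at the floor only in AAV-CDYL.

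**Figure D5:**
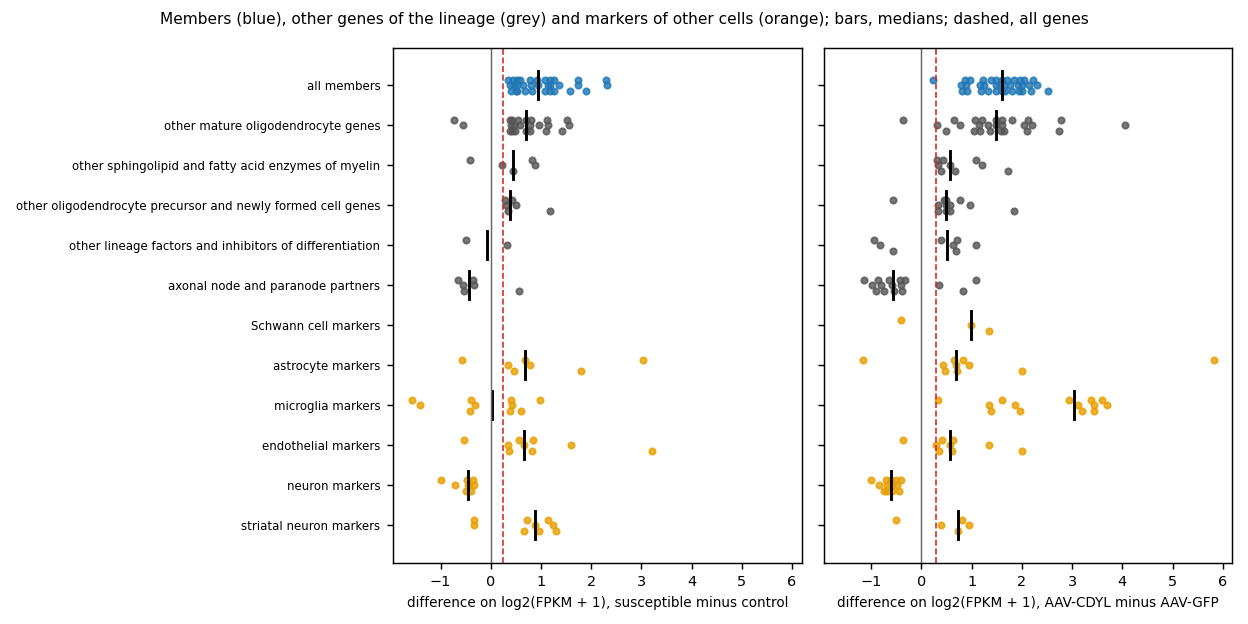
Difference on log2(FPKM + 1) of the members (blue), other genes of the lineage (grey) and markers of other cells (orange), each point a gene at the floor, for the stress pair (left) and the AAV pair (right); bars are medians and the dashed line the median of all genes. Members centre at 0.93 and 1.61, neuron markers at -0.46 and -0.60, and microglia markers at 0.03 and 3.03.

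The authors' own test of 1 library against the other called few members. For stress, the authors' deposited table gave q under 0.05 to 5 members: Mobp, Mal, Cldn11 and Myrf (q = 0.0225 each) and Hapln2 (q = 0.0384), where 0.284% of all 12318 listed genes were called higher and 0.0487% lower. For the AAV pair, the authors' deposited table gave such a q to 3: Bcas1 (q = 0.00727), Mobp (q = 0.0206) and Cldn11 (q = 0.0373), where 0.955% of 15396 were called higher and 0 lower. Mobp and Cldn11 were called in both.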

How the data were processed

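RNA was extracted with Trizol from frozen prelimbic tissue and libraries were built with the NEBNext Ultra kit (strand not marked), per the labels' protocols. The FPKM values deposited by the authors come from Cuffdiff on mm10, per the submitters' processing notes; no source used here names the aligner, the annotation or a version. The authors' p-values and q-values, as deposited, set 1 library against 1 other, and only q-values are printed, as the authors'. The log2 fold column deposited by the authors, held as a score because values near 0 give extreme entries, was not used. The susceptible column was matched to its title although the header lacks a letter.

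The 38 members and all gene lists were chosen with earlier results of these data known. Named genes are the members and, from each other list of the lineage, the 2 with the largest difference in each pair; a gene named outside this rule is said to be so. Differences were taken within a table on log2(FPKM + 1), with a floor of 1 FPKM in either library. Effective depth was estimated from genes with 1 annotated transcript (GENCODE M21, GRCm38), where 82.6% to 95.5% of low values lay on whole steps; it includes the authors' scaling. Approximate fragment numbers used the median coding transcript length, and intervals are exact Clopper-Pearson limits on their ratio. A symbol with 2 gene IDs (Itgam) was read from the more abundant one. Of the members, 7 in each pair had another listed gene in their Cuffdiff locus, Mbp among them. Exonic bases also overlapped other annotated genes for Evi2a (19.2%), Qdpr (18.6%), Cryab (17.0%) and Plekhh1 (14.8%). The calculations were tested on simulated data, with 2-fold changes and small noise in genes at 5 FPKM or more. That checks the code only, not differences between single libraries or genes of lower level. Alternatives were pseudocounts of 0.1 and 0.5, no floor, floors of 5 FPKM or in the reference library, a 2-fold rule, centring, upper quartile scaling, and leaving out shared loci or the lineage factors and precursor receptors. Tools were scipy 1.17.1, pandas 2.3.3 and numpy 2.4.6 in Python 3.11.15, with matplotlib 3.10.9 for plots.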

Additional observations from a re-analysis of the deposited data

How the results depend on the processing

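Of 202 recomputed values for 28 results, 182 stayed within 1.5 times of the value reported and on its side of 0. These include the counts of members higher (15 to 25 after stress, 29 to 35 with CDYL) and lower (0 throughout). The share of all genes called higher was recomputed only for centring (9.97% and 20.3%) and upper quartile scaling (16.6% and 29.7%). For the other settings the counts thus stand without it. Also within 1.5 times was the median of the members, which ran from 0.69 to 1.11 after stress and from 1.31 to 1.74 with CDYL. Centring on the median of all genes lowered the stress medians of the enzymes to 0.29, of the precursor receptors to 0.19, of other mature genes to 0.46, of other sphingolipid enzymes to 0.20 and of precursor and newly formed cell genes to 0.13. It moved the axonal partners to -0.69 and the other lineage factors to -0.33. With CDYL it gave 0.27 for other sphingolipid enzymes, 0.19 for precursor and newly formed cell genes, 0.22 for other lineage factors and -0.86 for axonal partners, and turned Cspg4 to -0.067. The stress median of other lineage factors rests on 2 genes (-0.08). It was 0.035 and -0.036 with pseudocounts of 0.1 and 0.5, 0.32 without a floor, -0.49 with a floor of 5 FPKM or in the reference library, and -0.13 with upper quartile scaling. With a floor of 5 FPKM it was -0.56 with CDYL, and other sphingolipid enzymes stood at 0.82 after stress. Apart from what centring and scaling do by construction and the few genes a floor leaves, the cause was not tested. The floor of 5 FPKM left no gene for precursor and newly formed cells after stress or for precursor receptors with CDYL. No paired analysis was possible because each group has 1 library. Depth limits Cldn14 and other genes under 1 FPKM.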

Other observations

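The 38 members lie on 16 chromosomes, with 5 on chromosome 3 (Cldn11, Tspan2, Hapln2, Ugt8a and Car2) and 4 each on chromosomes 7 and 11. Over 36 members in the AAV pair Spearman's rho of the log2 fold with the longest coding transcript was -0.26, and over 6802 genes at the floor -0.35. In the stress pair these were -0.17 over 32 members and -0.18 over 4369 genes. Over the 31 members at the floor in both tables rho was -0.48 in the AAV pair and -0.10 in the stress pair. Genes are not independent replicates, and all points of a pair share 2 libraries. The 250 bases before the start sites held a median of 57.2% G and C and 11 CpG pairs in the 28 members searched. The medians were 52.4% and 6 in the 27025 genes searched, with chromosome 18 left out.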
